A study of Mus musculus with 15 samples.

Results

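Prdm1, Xbp1, Ell2, Bhlha15, Creb3l2 and Zbtb20 are 6 genes that act in the formation of plasma cells or in their secretion of antibody, and they were taken by symbol from the 23420 genes of the deposited expression table. The study compared mouse germinal centre (GC) B cells of successive phenotypes with plasmablasts that had come out of the germinal centre. RNA was measured in 15 libraries of 100 sorted cells each, 3 libraries in each of 5 groups. All donor B cells carried the B1-8hi (KI/+) knock-in receptor and CD45.1, were transferred to C57BL6 hosts immunised with NP-CGG in CFA, and were recovered from draining lymph nodes on day 12.

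The GC-derived plasmablasts (GC-PB, sorted as CD138hi CD44hi tdTomato+) came from donors with S1pr2-ERT2cre Tg and ROSA-Ai14 (KI/+), and their hosts received tamoxifen on days 6, 7 and 8. Their label therefore rests on Cre driven by S1pr2, a gene that marks GC B cells. The other 4 groups came from donors with the Bcl6-YFP (KI/+) reporter, with no tamoxifen stated, and were sorted as B220+ CD38lo GL7hi cells. Fraction 1 was CXCR4lo CD86hi (light zone), CD69hi and Bcl6lo. Fraction 2 was light zone CD69hi Bcl6hi, Fraction 3 was light zone CD69lo Bcl6hi, and DZ was the CXCR4hi CD86lo dark zone. The labels describe the replicates of a group as libraries prepared independently but name no animals, so p-values here cover the variation among libraries and that variation may be technical.

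A B cell becomes a plasma cell by silencing the B cell programme and building a secretory apparatus. Blimp-1, encoded by Prdm1, is a zinc finger repressor that shuts off genes such as Pax5, Bcl6 and Ciita, and Xbp1 is a leucine zipper factor that drives expansion of the endoplasmic reticulum after the kinase and nuclease IRE1 (Ern1) splices its mRNA. Ell2 is a transcription elongation factor that favours the secretory form of the immunoglobulin heavy chain mRNA. Bhlha15 (Mist1) is a basic helix-loop-helix factor of secretory cells. Creb3l2 (BBF2H7) is a membrane-bound leucine zipper factor, released by proteolysis, that raises COPII transport genes in cartilage cells. Zbtb20 is a BTB zinc finger repressor known for supporting plasma cell survival.

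In mm10, Prdm1 lies at chr10:44437177-44528501 on the minus strand, Xbp1 at chr11:5520659-5525893 on the plus strand, and Ell2 at chr13:75706757-75772364 on the plus strand, as GENCODE annotates them. Bhlha15 lies at chr5:144190286-144194441 (plus), Creb3l2 at chr6:37327255-37442146 (minus) and Zbtb20 at chr16:42875881-43642602 (plus). All 6 are annotated as protein coding. RefSeq promoter windows (GRCm38.p6, from 250 bases before to 50 after an annotated start, 300 bases) were matched for all 6 by symbol. Upstream bases are printed for 5 of them because those 5 were higher in GC-PB, and capitals mark matches to short motifs searched on both strands. The motifs are ACGT (the core shared by Creb and Xbp1 type leucine zippers), TGACGT (which contains ACGT), CCACG and TGANTCA (the AP-1 type site to which Bach2 can bind).
Prdm1, chr10:44458749-44458998, minus strand, TGANTCA and CCACG in capitals: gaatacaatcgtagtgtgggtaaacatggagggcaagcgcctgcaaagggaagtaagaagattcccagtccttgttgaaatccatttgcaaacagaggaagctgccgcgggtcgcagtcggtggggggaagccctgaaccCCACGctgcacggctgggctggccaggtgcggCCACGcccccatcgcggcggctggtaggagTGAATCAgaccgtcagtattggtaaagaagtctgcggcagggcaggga
Xbp1, chr11:5520391-5520640, plus strand, ACGT in capitals: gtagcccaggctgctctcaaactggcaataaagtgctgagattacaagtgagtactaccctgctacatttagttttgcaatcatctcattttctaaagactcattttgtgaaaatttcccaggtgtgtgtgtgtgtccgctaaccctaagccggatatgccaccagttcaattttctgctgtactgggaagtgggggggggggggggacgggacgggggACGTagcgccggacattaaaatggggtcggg
Bhlha15, chr5:144190036-144190285, plus strand, CCACG (read from the other strand) in capitals: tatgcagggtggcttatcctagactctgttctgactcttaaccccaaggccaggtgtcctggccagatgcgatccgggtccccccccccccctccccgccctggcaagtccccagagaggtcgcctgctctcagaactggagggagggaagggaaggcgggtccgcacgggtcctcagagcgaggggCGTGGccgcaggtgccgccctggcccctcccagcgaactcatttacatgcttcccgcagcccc
Creb3l2, chr6:37442149-37442398, minus strand, TGACGT in capitals: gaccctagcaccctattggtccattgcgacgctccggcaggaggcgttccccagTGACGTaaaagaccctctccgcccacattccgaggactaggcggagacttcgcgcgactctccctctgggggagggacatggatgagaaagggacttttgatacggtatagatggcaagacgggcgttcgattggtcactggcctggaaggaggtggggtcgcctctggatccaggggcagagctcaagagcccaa
Ell2, chr13:75707275-75707304, plus strand, 30 bases with TGACGT in capitals on both strands, overlapping: aagacgagacaTGACGTCAgataagattaa

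The windows shared no single match. TGANTCA was present in the Prdm1 window at bases -48 to -42 and in 7.81% of all 32851 windows. ACGT was present in 4 of the 6 windows, those of Xbp1, Ell2, Creb3l2 and Bhlha15, and in 30.9% of all windows, and TGACGT in those of Ell2 and Creb3l2 and in 7.51% of all. The Bhlha15 window also held ACGTG, which 19.6% of all windows hold, at bases 20 to 24. CCACG was present in the Prdm1 and Bhlha15 windows and in 32.8% of all. CAGCTG, an E box of basic helix-loop-helix factors, was present in the Ell2 window and in 16.3% of all, and GAAAGT, part of the Blimp-1 recognition sequence, in the Zbtb20 window and in 14.3% of all. These are matches of letters, not tested sites. The Prdm1 bases lie inside the annotated gene but outside its exons, since the RefSeq start used is downstream of the outermost GENCODE start, and the Ell2 bases lie in an exon that GENCODE annotates upstream.

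Deposited totals ran from 27942 to 115088 per library, and 9185 to 10132 genes were above 0. Each library was scaled to a common total of 38594.1 without the ribosomal RNA gene Rn45s, and a level below is the deposited value on that scale. Within a library 91.0% to 92.6% of the values above 0 were whole multiples, within 0.02, of a constant, and 1 multiple was worth a level of 0.197 to 0.233 in GC-PB and 0.107 to 0.176 in the other libraries. The sort was checked against markers: Sdc1 (CD138) was 13.6 ± 2.20 (SD, n = 3) in GC-PB, 0.0392 in Fraction 1 and listed at 0 in the other groups. The summed germinal centre markers were 1.16 to 1.97 in GC-PB, with Bcl6 at 0, and 14.6 to 81.0 in the other groups. Summed T cell, myeloid and stromal markers reached at most 0.641 in any library, and Cd3e, Cd4, Itgam and Col1a1 were at 0 in all 15. Xist averaged 12.8 in GC-PB and 10.5 in Fraction 1 and was at 0 elsewhere, while the Y-linked Ddx3y was at 0 in GC-PB, 0.0254 in Fraction 1 and 4.80 to 5.47 on average elsewhere. Comparisons of GC-PB or Fraction 1 with Fraction 2, Fraction 3 or DZ thus also compare donors of different sex, and the 2 differences cannot be told apart. Every comparison of GC-PB, that with Fraction 1 included, also compares donor genotype, stated tamoxifen and sort gate. These cannot be told apart from the plasmablast state.

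**Figure D1:**
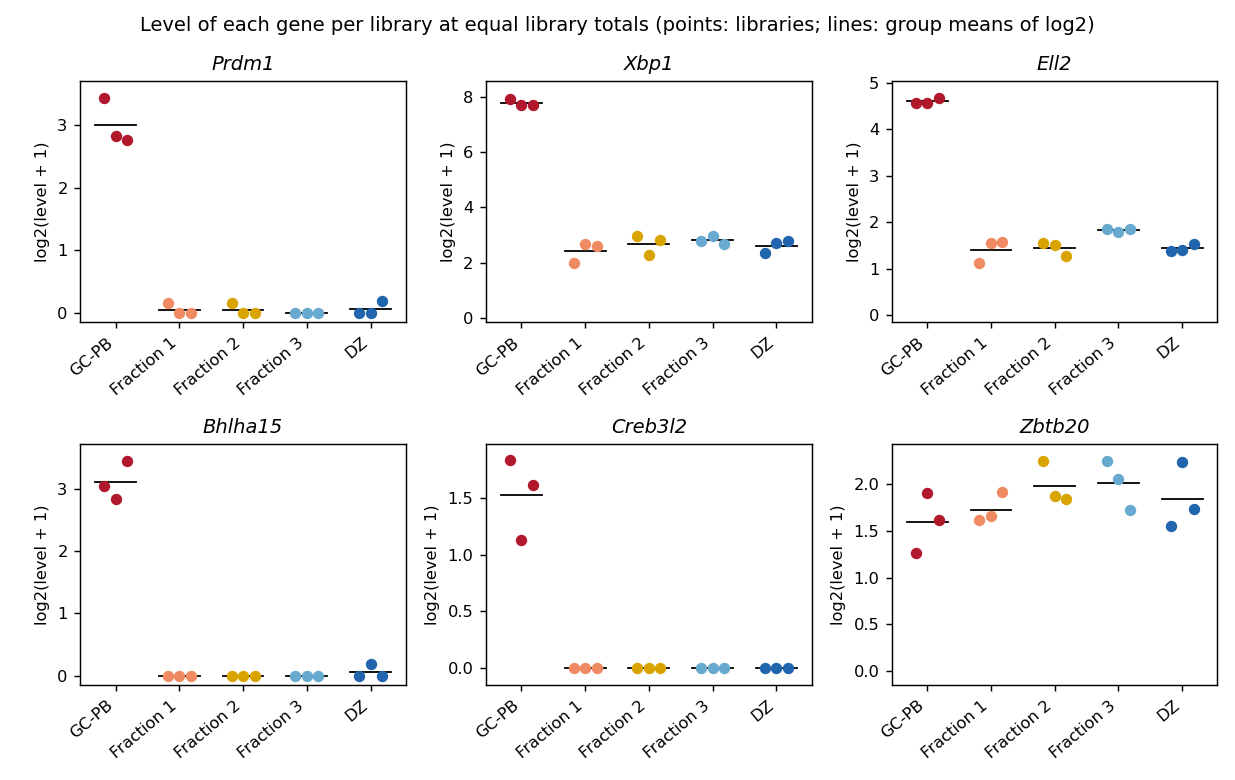
Level of each gene in each library, as log2(level + 1) at equal library totals, by group. Points are libraries and lines are group means of the plotted values. For every gene but Zbtb20 the 3 GC-PB libraries lie above the 12 others.

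Plasmablasts carried higher levels of 5 of the 6 regulators than any germinal centre group, and the 4 germinal centre groups carried the transcripts of Prdm1, Bhlha15 and Creb3l2 at or near 0. Xbp1 was 48.6-fold and Ell2 13.8-fold higher in GC-PB than in Fraction 1, by the ratio of mean levels. Zbtb20 was the exception, with overlapping levels in all 5 groups. In limma on log2(level + 1), with Benjamini-Hochberg adjustment over 11190 tested genes and a threshold of 0.05, 5 members were higher and 0 lower in GC-PB than in Fraction 1. Of all tested genes 14.1% were called higher and 22.3% lower, and 42.9% had no overlap between the libraries of the 2 groups, as these 5 had. Creb3l2 had no library above 0 outside GC-PB, Bhlha15 had 1 and Prdm1 had 3, and testing asked for 3 libraries above 0. Creb3l2 and Bhlha15 passed only through GC-PB and had to differ there, and Prdm1 would have passed on its 3 single multiples alone, so the count of 5 supports nothing by itself.

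Prdm1 stood at 9.78, 6.11 and 5.78 in GC-PB replicates 1, 2 and 3. In Fraction 1 it was 0.118, 0 and 0, in Fraction 2 0.120, 0 and 0, and in DZ 0, 0 and 0.145, while all 3 Fraction 3 libraries were listed at 0. Each of the 3 values above 0 outside GC-PB was a single multiple of the library's constant, against 101 multiples summed over the GC-PB libraries. No GC library came near the lowest GC-PB library, and the RNA that encodes Blimp-1 was therefore at the limit of what these libraries show in every germinal centre fraction, the Bcl6lo cells included. The log2 difference between GC-PB and Fraction 1 was 2.95 ± 0.18 (SE, adjusted p = 4.48e-11, limma). The difference depends on the pseudocount, at 4.68 with 0.25 and 1.46 with 4, and no ratio of levels is given, because the Fraction 1 mean rests on 1 multiple.

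Xbp1 read 243.1, 206.3 and 205.7 in the GC-PB libraries, where it made up 0.566% of the total on average. It was 2.94, 5.37 and 5.17 in Fraction 1, 6.74, 3.81 and 6.13 in Fraction 2, 5.93, 6.83 and 5.46 in Fraction 3 and 4.16, 5.52 and 5.93 in DZ. Every GC library therefore held Xbp1 RNA at a low level, unlike Prdm1. The log2 difference was 5.35 ± 0.19 (SE, adjusted p = 8.47e-15, limma) against Fraction 1, the ninth smallest p of all tested genes. The table gives 1 value per gene, so that spliced and unspliced Xbp1 mRNA were not distinguished.

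Ell2 was 22.8, 22.9 and 24.4 in the GC-PB libraries, with an SD of 0.887 around a mean of 23.3. It was 1.18, 1.93 and 1.97 in Fraction 1, and the log2 difference was 3.19 ± 0.16 (SE, adjusted p = 1.56e-12, limma). All germinal centre libraries held some Ell2, between 1.18 and 2.64. An antisense gene, 1700037F03Rik, overlaps an Ell2 exon in the annotation and has no row of its own. Whether the authors counted by strand is not given in the sources used here, so reads of that gene and of Ell2 cannot be told apart.

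Bhlha15 was 7.22, 6.11 and 9.91 in the GC-PB libraries. It was listed at 0 in all 9 libraries of Fractions 1, 2 and 3, and 1 DZ library held a single multiple, at 0.138. Its log2 difference from Fraction 1 was 3.11 ± 0.17 (SE, adjusted p = 8.67e-12, limma), a value that was 4.97 with a pseudocount of 0.25 and 1.54 with 4.

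Creb3l2 was 2.56, 1.18 and 2.07 in the GC-PB libraries, resting on 11, 6 and 10 multiples of the library constant. It was listed at 0 in all 12 germinal centre libraries. Of the 15 libraries only the 3 plasmablast libraries thus listed Creb3l2 above 0, each from few multiples, and its log2 difference of 1.52 ± 0.13 (SE, adjusted p = 1.07e-08, limma) was 3.07 with a pseudocount of 0.25 and 0.56 with 4. Since it passed the filter only through GC-PB, it had to differ there.

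Zbtb20 was 1.40, 2.76 and 2.07 in the GC-PB libraries and 2.06, 2.15 and 2.77 in Fraction 1. It was 3.73, 2.65 and 2.57 in Fraction 2, 3.76, 3.15 and 2.29 in Fraction 3 and 1.92, 3.73 and 2.31 in DZ. Every group overlapped every other group, and the widest span was in DZ. GC-PB and Fraction 1 differed by -0.13 ± 0.22 on the log2 scale (SE, adjusted p = 0.689, limma), with a 95% interval from -0.58 to 0.32. As deposited, without scaling, the difference was -0.73 and passed the threshold (adjusted p = 0.0146), where the median of all tested genes was -0.42 and 11.2% of them were called higher and 45.8% lower. With libraries scaled by median ratios it was 0.070 (adjusted p = 0.847). The gene is long and holds others. The antisense gene Gm19522, which overlaps an exon, was above 0 in 1 DZ library. Gm9968, another antisense gene over an exon, has no row of its own, so its reads and those of Zbtb20 cannot be told apart. The intronic pseudogene BC002163, counted separately, averaged 4.80 ± 0.94 in GC-PB and 2.35 ± 0.26 in Fraction 1 (SD, n = 3 each). Zbtb20 values were whole multiples of the library's constant in 12 of the 15 libraries.

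GC-PB replicate 1 was highest of the plasmablasts for Prdm1, Xbp1 and Creb3l2 and lowest for Zbtb20, while replicate 3 was highest for Ell2 and Bhlha15. The called differences were larger than this spread, and leaving out any 1 of the 6 libraries moved Prdm1 between 2.74 and 3.08, Xbp1 between 5.12 and 5.47, Ell2 between 3.04 and 3.27 and Bhlha15 between 2.93 and 3.24. Creb3l2 was no longer tested once a GC-PB library was left out. In these bulk libraries fewer cells with a transcript and less of it in each cell cannot be told apart.

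**Figure D2:**
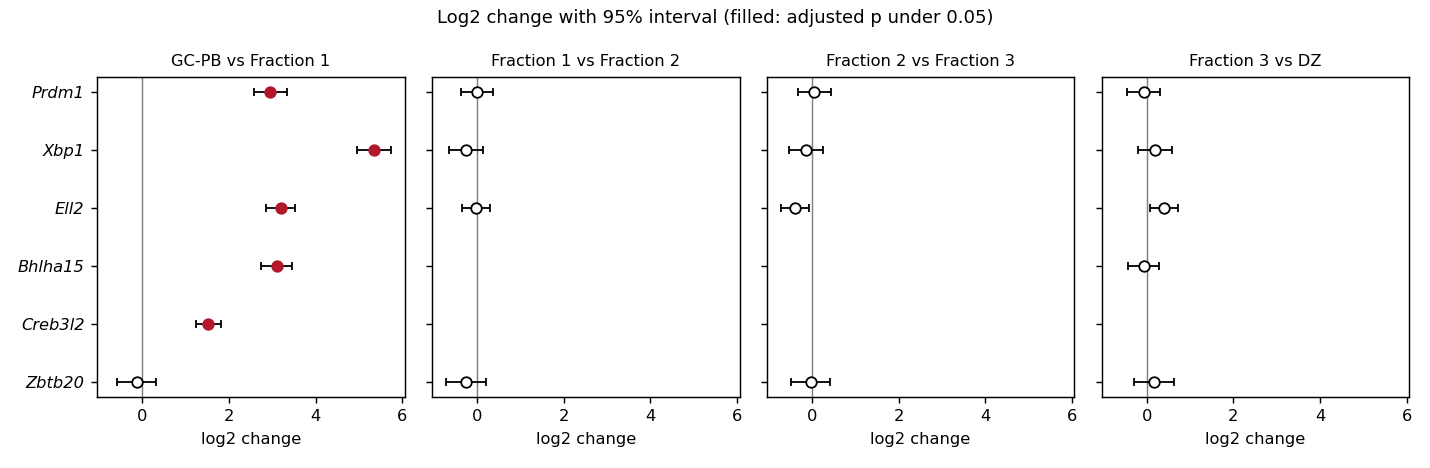
Log2 change of each gene in 4 comparisons of neighbouring groups, with 95% intervals from limma. Filled points passed the adjusted threshold of 0.05, and genes listed at 0 in both groups have no point. Only GC-PB against Fraction 1 holds filled points, 5 in number.

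The other comparisons of GC-PB shared its 3 libraries and gave the same 5 genes as higher and 0 as lower. Against Fraction 2, where 12.1% of all tested genes were higher and 23.7% lower, Xbp1 differed by 5.09, Ell2 by 3.16 and Prdm1 by 2.95 on the log2 scale. Against Fraction 3, where 13.1% were higher and 23.9% lower, Xbp1 differed by 4.95, Ell2 by 2.77 and Prdm1 by 3.01. Against DZ, where 12.6% were higher and 23.3% lower, Xbp1 differed by 5.15, Ell2 by 3.17 and Prdm1 by 2.94. The adjusted p-values of these 9 differences lay between 9.44e-15 and 4.32e-11 (limma). Zbtb20 was not called in any of them (adjusted p = 0.179, 0.149 and 0.418 against Fraction 2, Fraction 3 and DZ).

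Within the germinal centre none of the 6 genes passed the test in any of the 6 pairs of groups at equal totals. Creb3l2, listed at 0 in all of these libraries, could not differ in any pair. Bhlha15 could not differ between the fractions, and against DZ it rested on 1 multiple. Neither gene therefore adds to the counts of 0 of 6 here and below. For the pairs that are not neighbours, 21% of all tested genes were called between Fraction 1 and Fraction 3, 21.1% between Fraction 1 and DZ and 3.5% between Fraction 2 and DZ. Between Fraction 1 and Fraction 2, which differ in Bcl6 and also in the sex of the donors, 0 of 6 members and 9.03% of all tested genes were called in either direction. Xbp1 averaged 4.50 ± 1.35 in Fraction 1 and 5.56 ± 1.55 in Fraction 2 (SD, n = 3 each), a log2 difference of -0.26 with a 95% interval from -0.65 to 0.13. Ell2 averaged 1.69 ± 0.45 in Fraction 1 and 1.73 ± 0.27 in Fraction 2 (interval -0.36 to 0.30), and Zbtb20 2.33 ± 0.39 in Fraction 1 and 2.99 ± 0.65 in Fraction 2 (interval -0.71 to 0.20). The intervals of Xbp1 and Ell2 lie far below the differences these genes showed in plasmablasts. Prdm1 was at 1 multiple in each fraction, a depth at which a small difference was not detectable.

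**Figure D3:**
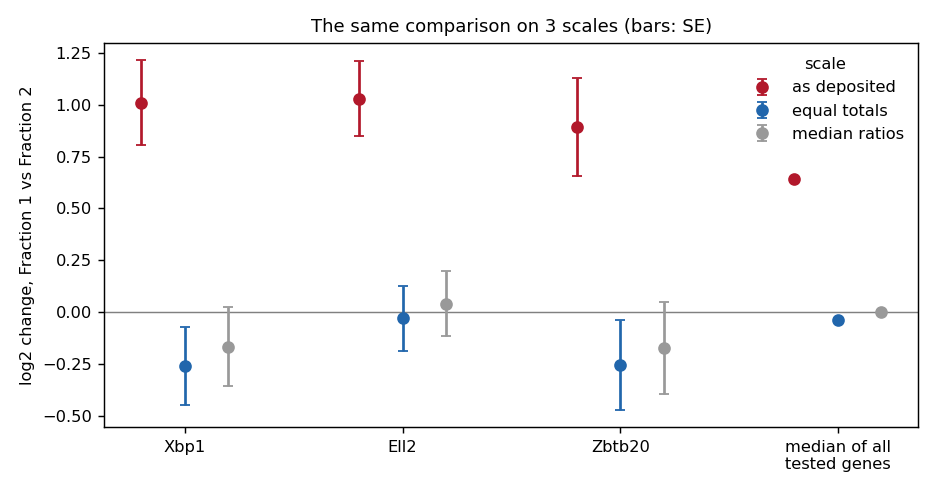
Log2 change between Fraction 1 and Fraction 2 of the 3 genes detected in every library, and the median of all tested genes, on 3 scales. Bars are standard errors from limma. As deposited all 3 genes lie near 1 and the median gene at 0.64, while at equal totals and by median ratios all lie within 0.26 of 0.

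The comparison of Fraction 1 with Fraction 2 depended on the scale. As deposited, Xbp1 (1.01, adjusted p = 0.000407), Ell2 (1.03, adjusted p = 0.000104) and Zbtb20 (0.89, adjusted p = 0.0039) were all higher in Fraction 1 (limma), as were 54.7% of all tested genes, with 0.563% lower. The same 3 genes were higher as deposited in Fraction 1 than in Fraction 3 (Xbp1 1.23, Ell2 0.93 and Zbtb20 1.17, adjusted p at most 0.000321, limma), where 61.6% of all tested genes were called higher, and than in DZ (Xbp1 1.36, Ell2 1.24 and Zbtb20 1.28, adjusted p at most 0.000142, limma), where 60.1% were. The deposited totals averaged 110747 in Fraction 1 and 40215 in Fraction 2. Equal amounts of spike-in RNA were added to each tube, per the labels, but whether the deposited values were scaled by it is not given in the sources used here. The deposited difference and the difference in share of the total are therefore both measurements, and which of them is closer to RNA per cell was not tested.

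Between Fraction 2 and Fraction 3 (CD69hi against CD69lo, both Bcl6hi) 0 of 6 members and 0.688% of all tested genes were called. Ell2 was 1.93, 1.85 and 1.42 in Fraction 2 and 2.60, 2.45 and 2.64 in Fraction 3. The libraries of the 2 fractions did not overlap, as was the case for 17% of all tested genes, and the log2 difference of -0.39 did not pass (adjusted p = 0.342, limma, unadjusted p = 0.0229). Xbp1 (-0.13, adjusted p = 0.88) and Zbtb20 (-0.03, adjusted p = 0.997) overlapped.

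Between Fraction 3 and DZ 0 of 6 members and 1.05% of all tested genes were called. Ell2 was again without overlap, as were 14.3% of all tested genes, with the Fraction 3 values above (2.60, 2.45 and 2.64) against 1.60, 1.66 and 1.88 in DZ and a log2 difference of 0.40 (adjusted p = 0.355, limma, unadjusted p = 0.021). Ell2 was also higher in all 3 Fraction 3 libraries than in any Fraction 1 library (Fraction 1 against Fraction 3 -0.42, adjusted p = 0.0663, no overlap in 35.2% of all genes). At equal totals Fraction 3 was thus the highest germinal centre group for Ell2, by a margin that did not pass over all genes. As deposited the direction was the opposite and passed, with Ell2 higher in Fraction 1 than in Fraction 3 by 0.93 (adjusted p = 0.000202).

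By mean level at equal totals, Prdm1 ran GC-PB, DZ, Fraction 2, Fraction 1, Fraction 3, with a called step only after GC-PB. Xbp1 and Ell2 both ran GC-PB, Fraction 3, Fraction 2, DZ, Fraction 1, again with a called step only after GC-PB. As deposited their order within the germinal centre changed, since both were higher in Fraction 1 than in each other germinal centre group. Bhlha15 ran GC-PB, DZ and then the 3 fractions listed at 0. Zbtb20 ran Fraction 3, Fraction 2, DZ, Fraction 1, GC-PB, and no neighbours in that order differed beyond their spread.

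The genes whose levels followed each regulator most closely over the 15 libraries were found by Pearson correlation of log2(level + 1). These are descriptions, and for the 5 genes raised in GC-PB they mainly compare 3 libraries with 12. Prdm1 was closest to Epcam (an adhesion molecule, r = 0.999), Ly6i (0.998) and Ly6c2 (0.997). Xbp1 was closest to Ly6a (0.996), 4632428N05Rik (0.992) and Fkbp11 (0.992), a prolyl isomerase of the secretory route. Ell2 was closest to Ly6a (0.995), Xbp1 (0.991) and Wfs1 (0.990). Bhlha15 was closest to the prolactin receptor Prlr (0.998), Upb1 (0.998) and Pkd2l2 (0.996), and Creb3l2 to Tnfsf10 (1.000), the death ligand TRAIL, Fndc3b (0.998) and Prg2 (0.998). Several of these neighbours were low. Ly6i averaged 0.306, Tnfsf10 0.571, Pkd2l2 0.983 and Upb1 0.986 in GC-PB, and all were at 0 in the other groups. Prlr (2.10 in GC-PB), 4632428N05Rik (4.66) and Fndc3b (5.24) were less low but likewise at 0 in the other groups. Such genes passed the filter only through GC-PB, so a high r with a gene raised there was fixed in advance. Zbtb20 had looser neighbours, Cd59b (0.839), Ate1 (0.801) and Smg1 (0.794), and Cd59b averaged at most 0.136 in any group. Among the 12 germinal centre libraries alone, Xbp1 and Ell2 correlated at r = 0.578 and Xbp1 and Zbtb20 at r = 0.577, the highest pairs. Ell2 and Zbtb20 correlated at r = 0.382. Pairs with Prdm1 or Bhlha15, which rest on single multiples there, ran from -0.334 (Prdm1 and Ell2) to 0.434 (Zbtb20 and Bhlha15). These libraries pool all germinal centre groups and both donor sexes, and no r over all pairs of genes was computed for comparison.

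Genes that act with the 6 regulators were followed as 7 lists, chosen from textbook roles with earlier results of these data known. In GC-PB against Fraction 1 the median log2 change of all tested genes was -0.06, with 14.1% called higher and 22.3% lower. In Fraction 1 against Fraction 2, 3.79% were called higher and 5.25% lower. Between Fraction 2 and Fraction 3 0.688% were called in either direction, and between Fraction 3 and DZ 1.05%. These shares are at equal totals. As deposited, 11.2% were higher and 45.8% lower in GC-PB against Fraction 1, and 54.7% higher and 0.563% lower in Fraction 1 against Fraction 2.

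Most factors upstream of Prdm1 were lower in plasmablasts. Of 12 tested of 13 listed, 2 were higher and 8 lower in GC-PB (median -1.47). Irf4, which activates Prdm1, averaged 15.3 ± 2.40 in GC-PB and 5.44 ± 0.94 in Fraction 1 (SD, n = 3 each, log2 difference 1.34 ± 0.21 SE, adjusted p = 3.26e-05, limma), and Pou2af1 (OBF-1) was also higher (0.76, adjusted p = 3.48e-06). As deposited Pou2af1 did not pass (adjusted p = 0.658, limma), and 1 of the 12 was higher and 9 lower. Stat3, which also activates Prdm1, was lower, at 3.77 in GC-PB and 8.81 in Fraction 1 (-1.06, adjusted p = 3.58e-05). Of the repressors of Prdm1, Bach2 averaged 0.143 in GC-PB and 5.90 in Fraction 1 (-2.60, adjusted p = 9.33e-13), and Bcl6 was listed at 0 in GC-PB and averaged 3.97 in Fraction 1 (adjusted p = 1.87e-10). Spib, an Ets factor, averaged 0.131 in GC-PB and 10.4 in Fraction 1 (-3.36, adjusted p = 7.92e-13), and Irf8 1.83 in GC-PB and 23.9 in Fraction 1 (-3.25, adjusted p = 6.8e-11).

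Some of these factors also differed among the germinal centre fractions, where Prdm1 itself was near 0 throughout. Of the 12, 1 was higher and 5 lower in Fraction 1 than in Fraction 2, where 3.79% of all tested genes were higher and 5.25% lower. Irf4 averaged 5.44 in Fraction 1 and 1.60 in Fraction 2 (1.33, adjusted p = 0.000403, limma), higher on all 3 scales. Bcl6 averaged 3.97 in Fraction 1 and 15.5 in Fraction 2 (-1.75, adjusted p = 5.45e-07), lower on all 3 scales, and Bcl6 was used in the sort. Bach2 averaged 5.90 in Fraction 1 and 11.7 in Fraction 2 (-0.88, adjusted p = 0.000104, but 0.43 as deposited). Pou2af1 (-0.59, adjusted p = 0.000705), Spib (-0.51, adjusted p = 0.0493) and Id3, an inhibitor of basic helix-loop-helix factors (-0.62, adjusted p = 0.0437), were lower at equal totals but higher on the deposited scale, and with 1 library left out Spib ran from -0.61 to -0.42 and Id3 from -0.78 to -0.47. Of those 6 fits only the one without Fraction 2 replicate 1 kept either call. Between Fraction 2 and Fraction 3 Bach2 alone of the 12 was called, at 11.7 in Fraction 2 and 23.9 in Fraction 3 (-0.97, adjusted p = 0.000442). As deposited Bach2 did not pass there (adjusted p = 0.0529), and Irf4 was called higher in Fraction 2 (adjusted p = 0.0442, limma). Between Fraction 3 and DZ Pou2af1 alone was called, at 54.0 in Fraction 3 and 72.7 in DZ (-0.42, adjusted p = 0.0459), and the call was lost whichever 1 library was left out (-0.47 to -0.37).

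Genes that Blimp-1 represses were lower in plasmablasts. Of 12 tested, 0 were higher and 10 lower in GC-PB than in Fraction 1 (median -2.35), and 4 of the 12 (Pax5, Spib, Id3 and Bcl6) also stand in the upstream list. Cd22, an inhibitory receptor of B cells, averaged 0.275 in GC-PB and 8.23 in Fraction 1 (-2.87, adjusted p = 1.19e-11, limma). Pax5 was at 0 in GC-PB and 0.0717 in Fraction 1, too low for a difference to be seen (adjusted p = 0.552). It was near 0 in the other groups too, at 0.153 in Fraction 2, 0.117 in Fraction 3 and 0.0460 in DZ. Its low level is therefore not particular to GC-PB or Fraction 1. Against Fraction 2, Fraction 1 had 3 of the 12 higher and 7 lower at equal totals. On the deposited scale 8 were higher and 1 lower, where 54.7% of all tested genes were higher and 0.563% lower.

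All 28 genes of Xbp1 activation and its secretory targets were higher in GC-PB than in Fraction 1, with a median log2 change of 2.43. As deposited, 26 were called. Edem1, which directs misfolded glycoproteins to degradation, averaged 77.0 ± 3.12 in GC-PB and 3.03 ± 0.48 in Fraction 1 (SD, n = 3 each, log2 difference 4.28 ± 0.14 SE, adjusted p = 5.48e-15, limma). Manf, a secreted stress factor, averaged 67.1 in GC-PB and 7.22 in Fraction 1 (3.05, adjusted p = 1.67e-13), Creld2 45.0 in GC-PB and 1.44 in Fraction 1 (4.26, adjusted p = 2.89e-13) and the disulfide isomerase Pdia4 36.8 in GC-PB and 1.41 in Fraction 1 (3.99, adjusted p = 9.21e-13). Ern1, which encodes the enzyme that splices Xbp1 mRNA, averaged 0.278 in GC-PB, against a listing of 0 in Fraction 1. It passed the filter only through GC-PB and had to differ, so it adds nothing to the count of 28. In Fraction 1 against Fraction 2 the same list had 2 higher and 2 lower of 28 at equal totals. With 1 library left out the higher genes ran from 0.44 to 0.73 (Hspa5) and from 0.43 to 0.66 (Rpn1), and neither was called without Fraction 2 replicate 2. Hspa5 was also lost without Fraction 2 replicate 3 and Rpn1 in 5 of the 6 fits, all but that without Fraction 2 replicate 3. Herpud1, one of the lower genes (-0.84 to -0.60), did not pass once Fraction 1 replicate 2 or, in another fit, Fraction 2 replicate 1 was removed. On the deposited scale 25 were higher and 0 lower, where 54.7% of all tested genes were higher and 0.563% lower.

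CCAAT, then 9 bases of any kind, then CCACG make up the endoplasmic reticulum stress element, which ATF6 and Xbp1 can bind with NF-Y. These letters were searched on both strands and were present in 39 of the 32851 windows (0.119%). Of the 28 listed genes 23 had a window, and 5 of those held the element in any of their windows. That count is per gene while 0.119% is a share of windows, so they are unlike measures. The 30 bases around each match are shown because these 5 genes were all higher in GC-PB, with its outer letters in capitals.
Hspa5, chr2:34772020-34772049, plus strand: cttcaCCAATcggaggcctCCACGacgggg
Dnajc3, chr14:118937822-118937851, plus strand: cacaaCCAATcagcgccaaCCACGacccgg
Pdia6, chr12:17266486-17266515, plus strand: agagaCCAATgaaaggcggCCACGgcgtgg
Syvn1, chr19:6046527-6046556, plus strand: cgcaaCCAATcggcggtagCCACGggaaca
Creld2, chr15:88819515-88819544, plus strand, with the element read from the other strand: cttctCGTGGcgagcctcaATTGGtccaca

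Hspa5, the chaperone BiP, averaged 172 ± 19.1 in GC-PB and 28.3 ± 0.24 in Fraction 1 (SD, n = 3 each). Dnajc3, a cochaperone, averaged 34.8 in GC-PB and 2.66 in Fraction 1, and Pdia6, another disulfide isomerase, 47.0 in GC-PB and 8.84 in Fraction 1. Syvn1, a ubiquitin ligase of the degradation route, averaged 21.7 in GC-PB and 4.44 in Fraction 1. The 23 genes with or without the element were all higher in GC-PB, so that the match did not separate them. None of the windows of the 6 regulators held the element.

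**Figure D4:**
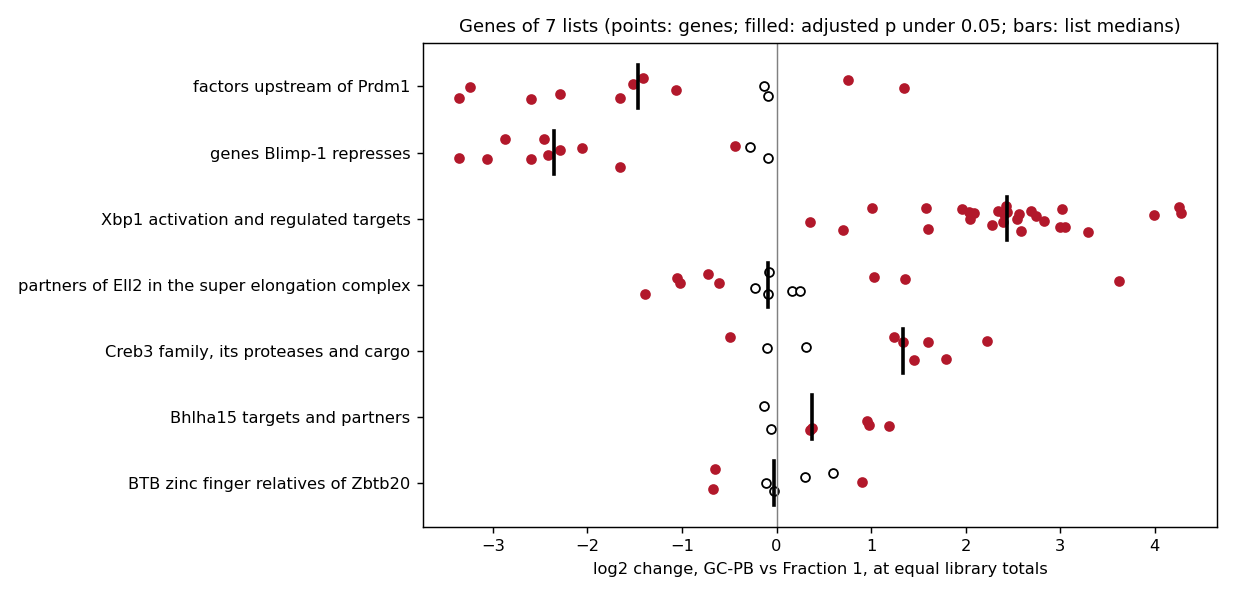
Log2 change in GC-PB against Fraction 1 at equal library totals for each tested gene of 7 lists. Points are genes, filled where the adjusted p was under 0.05, and vertical bars are list medians. All 28 points of the Xbp1 list lie above 0, and all 12 points of the list of genes that Blimp-1 represses lie below 0.

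The partners of Ell2 did not move as a group. Of 13 tested, 3 were higher and 5 lower in GC-PB (median -0.09). Eaf2, an Ell-associated factor, averaged 31.0 ± 4.46 in GC-PB and 1.66 ± 0.79 in Fraction 1 (SD, n = 3 each, log2 difference 3.62 ± 0.20 SE, adjusted p = 9.04e-12, limma), and the scaffold Aff1 2.06 in GC-PB and 0.186 in Fraction 1 (1.36, adjusted p = 1.22e-06). Supt4a, a subunit of the elongation factor DSIF, averaged 2.70 in GC-PB and 6.45 in Fraction 1 (-1.02, adjusted p = 7.38e-06), and the paralogue Ell3 was listed at 0 in GC-PB and averaged 1.63 in Fraction 1 (adjusted p = 1.58e-05). Eaf2 also differed among the light zone fractions. It averaged 1.66 in Fraction 1 and 3.76 in Fraction 2 (-0.84, adjusted p = 0.011), and 3.76 in Fraction 2 and 8.32 in Fraction 3 (-1.01, adjusted p = 0.0245). With 1 library left out the Eaf2 difference between Fraction 1 and Fraction 2 ran from -1.08 to -0.69, and it held only without replicate 2 of either fraction. That between Fraction 2 and Fraction 3 ran from -1.16 to -0.76 and held only without Fraction 2 replicate 1. As deposited neither passed (0.20, adjusted p = 0.554, and -0.63, adjusted p = 0.239).

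Relatives of Creb3l2 were mostly higher in GC-PB. Of 9 tested of 12 listed in the Creb3 and Atf6 families with their proteases and COPII cargo machinery, 6 were higher and 1 lower (median 1.34). Arf4, a small GTPase of the Golgi, averaged 22.1 in GC-PB and 5.65 in Fraction 1 (1.79, adjusted p = 2.01e-08, limma), and Atf6, another membrane-bound stress factor, 8.85 in GC-PB and 1.10 in Fraction 1 (2.23, adjusted p = 1.58e-07). The COPII coat gene Sec23b averaged 6.53 in GC-PB and 1.49 in Fraction 1 (1.60, adjusted p = 4.14e-06), and Atf6b 3.02 in GC-PB and 0.464 in Fraction 1 (1.45, adjusted p = 3.81e-05). The lower gene, the protease gene Mbtps2, was called at an adjusted p of 0.0416 and with 1 library left out it ran from -0.66 to -0.37, the call being lost without Fraction 1 replicate 1 or 3 or GC-PB replicate 1 or 2. None of the 9 was called among the germinal centre groups compared in sequence, where at most 9.03% of all tested genes were.

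Of 7 tested targets and partners of Bhlha15, 5 were higher and 0 lower in GC-PB (median 0.38). Of the 5, Ern1 also stands in the Xbp1 list, and Tcf4 (0.38, adjusted p = 0.0435) was not called without Fraction 1 replicate 1 or 3 or GC-PB replicate 1 or 3 (0.26 to 0.48). Without GC-PB replicate 3 only Rab3d and Tcf12 were called. As deposited 3 were higher and 1 lower. Rab3d, a GTPase of secretory vesicles, averaged 1.36 in GC-PB and 0.0205 in Fraction 1 (1.19, adjusted p = 1.21e-07, limma), and Tcf12, an E protein, 3.59 in GC-PB and 1.29 in Fraction 1 (0.98, adjusted p = 0.00094). Mcfd2, a cargo receptor subunit, averaged 2.65 ± 1.46 in GC-PB and 0.765 ± 0.19 in Fraction 1 (SD, n = 3 each, adjusted p = 0.00825), and with 1 library left out the log2 difference of 0.96 ran from 0.73 to 1.35 and was not called without GC-PB replicate 3.

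The BTB zinc finger relatives of Zbtb20 were mixed. Of 7 tested of 8 listed, 1 was higher and 2 lower in GC-PB (median -0.03), and by median ratios 2 were higher and 0 lower. Calls at equal totals were about as frequent as among all tested genes, of which 14.1% were higher and 22.3% lower. Zbtb7b, known for directing CD4 T cell fate, averaged 1.23 in GC-PB and 0.152 in Fraction 1 (0.91, adjusted p = 0.00345, limma). Zbtb44 averaged 0.602 in GC-PB and 1.52 in Fraction 1 (-0.65, adjusted p = 0.0213), and Zbtb17 (Miz1) 0.475 in GC-PB and 1.33 in Fraction 1 (-0.67, adjusted p = 0.032). With 1 library left out Zbtb44 ran from -0.71 to -0.55 and was not called without Fraction 1 replicate 3 or GC-PB replicate 1, and Zbtb17 ran from -0.90 to -0.48 and was not called without Fraction 1 replicate 2 or 3 or GC-PB replicate 1 or 3. Zbtb38 averaged 1.63 in GC-PB and 0.616 in Fraction 1 (adjusted p = 0.107). None of the 7 was called between any neighbouring germinal centre groups, where at most 9.03% of all tested genes were.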

How the data were processed

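RNA from 15 libraries of 100 cells was profiled by barcode-based 3' end sequencing, per the labels' protocols. The submitters' processing notes name TopHat2 and mm10, and other steps are not given in the sources used here. The deposited values, per the file headers 1 signal value per gene and library, are not whole counts, although most are whole multiples of a constant within each library, and no count test was used. Groups and replicate numbers came from sample titles. Each library's total without Rn45s was brought to the median of the 15 (38594.1). Testing covered the 11190 of 23420 genes with a value over 0 in 3 or more libraries. They were fitted with limma 3.58.1 (R 4.3.3, intensity trend) on log2(level + 1), with 5 group means in 1 fit and Benjamini-Hochberg adjustment over all tested genes (threshold 0.05). Changes on this scale understate those of low genes. The fit was checked on simulated data in which only genes with a mean level of at least 5 were changed. That check does not cover Prdm1, Ell2, Bhlha15, Creb3l2 or Zbtb20 among the germinal centre groups, where their levels were lower. Nor does it cover Prdm1, Bhlha15, Creb3l2 or Zbtb20 in GC-PB against Fraction 1, since their mean over both groups was under 5. The levels carry no counting interval, since the read depth behind them is not given.

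The 6 genes and all lists were chosen with earlier results of these data known. From each list up to 4 genes with the smallest p in GC-PB against Fraction 1 were named, with upstream factors also where called in another of the 4 comparisons, and, chosen after their values were seen, Pax5, Stat3, Tcf4, Ern1, Rpn1, Herpud1, Mbtps2, Hspa5, Dnajc3, Pdia6 and Syvn1. Eaf2 among the fractions was also added then. A gene that this rule named is not reported here. Neighbours are the 3 tested genes with the highest Pearson correlation over the 15 libraries. Positions are from GENCODE M21 and windows from RefSeq GRCm38.p6. Alternatives were values as deposited, median ratios, Rn45s kept, pseudocounts of 0.25 and 4, no filter or a filter at 6 libraries, only the 6 libraries compared, a replicate block, and each library left out. Figures were drawn with matplotlib 3.10.9.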

Additional observations from a re-analysis of the deposited data

How the results depend on the processing

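The 5 members higher in GC-PB than in Fraction 1 kept their direction and their call under every alternative that tested them. For Creb3l2, above 0 in GC-PB alone, and for Bhlha15, above 0 in 1 other library, this is no sign of stability, since both passed the filter only through GC-PB. With genes required above 0 in at least 6 libraries, 3 members were called, because Creb3l2 and Bhlha15 were not tested, and with 1 library left out 4 to 5 were called. Zbtb20 was -0.73 as deposited, past the threshold, 0.070 by median ratios and -0.29 to 0.035 with 1 library left out (0.035 without GC-PB replicate 1). As deposited, 6380 genes were called in GC-PB against Fraction 1 (4064 at equal totals), 6183 in Fraction 1 against Fraction 2 (1011), 301 in Fraction 2 against Fraction 3 (77) and 27 in Fraction 3 against DZ (118). With 1 library left out the last 3 counts ran from 551 to 683, from 17 to 39 and from 40 to 96. With a pseudocount of 0.25, 47 genes were called in Fraction 2 against Fraction 3 and 74 in Fraction 3 against DZ. Fraction 2 against Fraction 3 also gave 45 by median ratios and 179 with only the 6 libraries compared.

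In Fraction 1 against Fraction 2, 3 members were called as deposited, and the sign turned to 0.079 for Prdm1, 1.01 for Xbp1, 1.03 for Ell2 and 0.89 for Zbtb20. By median ratios Prdm1 was 0.0033 and Ell2 0.041, and with 1 library left out Ell2 ran from -0.11 to 0.12 and Prdm1 from -0.055 to 0.053. In Fraction 2 against Fraction 3, Xbp1 was 0.22 and Zbtb20 0.28 as deposited, and with 1 library left out Xbp1 ran from -0.27 to 0.075 and Zbtb20 from -0.17 to 0.10. The cause of these changes was not tested, except that the common total removes the difference in deposited totals by construction.

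Same-numbered replicates did not deviate together (correlations from -0.029 to 0.026 over the 4 comparisons), so the numbers were not taken to pair samples. With the replicate block 40 genes were called in Fraction 2 against Fraction 3, 4013 in GC-PB against Fraction 1, and no member's call changed. Depth limits Prdm1, Bhlha15 and Creb3l2 outside GC-PB, where each library held at most 1 multiple.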
